A study of Mus musculus with 6 samples.

Results

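The genes described here are the replication-dependent histone genes of the mouse as named in the deposited files, that is, all genes whose symbol starts with Hist1h, Hist2h, Hist3h or Hist4h. They number 67 of the 32285 genes in the files: 6 for the linker histone H1, 18 for H2A, 18 for H2B, 12 for H3 and 13 for H4. Of these, 54 lie on chromosome 13, 10 on chromosome 3, 2 on chromosome 11 and 1 on chromosome 6. Together they held 253906 UMIs (unique molecular identifiers, which count captured molecules).

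Whole mouse embryos were dissociated and profiled in droplets as single cells (10x Chromium, 3' chemistry), with 1 library for each of 6 stages between E3.5 and E5.5. All embryos came from B6SJLF1/J females crossed to B6CBAF1/J males. At E3.5 and E4.5 the females were 4 weeks old and superovulated with PMSG and hCG, and the embryos were flushed from the uterus. From E4.75 to E5.5 the females were 7 weeks old, no hormone treatment is named, and the embryos were dissected out. Cells of E3.5, E4.5 and E5.5 passed a 20 µm filter, whereas cells of E4.75, E5.0 and E5.25 did not. Each library pooled embryos, so there is no replicate error, no significance test was made between stages, and the intervals given are exact Poisson 95% intervals that cover counting error only.

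Histone proteins wrap DNA into nucleosomes, which hold H2A, H2B, H3 and H4, while H1 binds the linker between them. The replication-dependent genes are transcribed mainly in S phase, when new chromatin needs histones, and their mRNAs end in a conserved stem-loop bound by SLBP instead of a poly(A) tail. A few of these genes also give polyadenylated mRNA, which is known from differentiated and non-dividing cells. Replication-independent variants such as H3.3 and H2A.Z are made from ordinary polyadenylated mRNAs throughout the cell cycle. The 3' chemistry primes on poly(A), so the UMIs below count the histone RNA that was captured this way and cannot be read as the total amount of histone mRNA.

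Because capture starts at the 3' end, the 3' end sequences are shown for the genes that carry most of the results. A histone stem-loop was found in the annotated transcripts of 44 of the 67 members, and in 51 of 55450 genes (0.092%) in the whole GENCODE M21 annotation of GRCm38. In 22 members the annotated transcript runs 100 or more bases past the stem-loop. The stem-loop is in capitals in the following stretches of at most 30 bases, written 5′ to 3′. The first 3 members end close to it in the annotation.
Hist1h2ap: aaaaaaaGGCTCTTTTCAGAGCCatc
Hist1h3c: aaaaaaaGGCTCTTTTAAGAGCCacctaag
Hist1h2bj: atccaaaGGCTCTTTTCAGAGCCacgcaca
The next 4 have annotated transcripts that go on well past it.
Hist1h4d: aaccaaaGGCCCTTTTCAGGGCCactacct
Hist1h4i: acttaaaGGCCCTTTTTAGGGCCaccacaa
Hist1h1c: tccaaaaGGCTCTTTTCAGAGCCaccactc
Hist3h2ba: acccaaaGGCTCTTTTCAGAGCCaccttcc
The annotation of Hist1h2ap stops 3 bases after the stem-loop, that of Hist1h3c 74 bases and that of Hist1h2bj 23 bases after it, against 770 bases in Hist1h4d, 330 in Hist1h4i, 840 in Hist1h1c and 169 in Hist3h2ba. Of the 67 members, 17 had a polyadenylation signal in the last 60 annotated bases, against 44.55% of all genes. No stem-loop was found in the annotated transcripts of Hist1h1b, Hist1h1a and Hist1h2bc, which says only that these letters are not in the annotated sequence.

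The H2A gene with the most UMIs, Hist1h2ap, has a run of 12 A directly before its stem-loop, and Hist1h2ae, the H2A gene next to it in UMIs, has a run of 8 A. The runs are in capitals here, each being the longest A stretch of its own transcript.
Hist1h2ap: cccgaaaagAAAAAAAAAAAAggctctttt
Hist1h2ao: cccgaaaagAAAAAAAAAAAAggctctttt
Hist1h2ae: tctaatctcgtAAAAAAAAcaaaggctctt
Hist1h2ao carries the same 12 A run as Hist1h2ap but held 68 UMIs in all libraries, against 60186 for Hist1h2ap and 24412 for Hist1h2ae. Near-identical copies limit such a comparison: all (100.0%) of the 75-base words in the last 400 bases of Hist1h2ap, 91.4% of those of Hist1h2ao and 39.9% of those of Hist1h2ae also occur in other genes, so reads could be shared or lost between copies. In all, 30 of the 67 members share at least 50% of these words with other genes. Longer or similar runs, at other places, lie in members with fewer UMIs: Hist1h2ac has a run of 15 A and held 2531 UMIs, and Hist1h2be has a run of 11 A and held 3149. These runs end 1187 and 1045 bases before the annotated 3' end, and the stem-loops of the 2 genes 2010 and 1861 bases before it. By these annotated positions both runs lie past the stem-loop, whereas those of Hist1h2ap and Hist1h2ae lie just before it, so the sites are unlike. Whether the A runs bear on capture was not tested.

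A few genes held most histone UMIs. Hist1h2ap (chr13:21833026-21833507, minus strand) had 23.7% of them, Hist1h1b (H1.5, chr13:21779883-21780625, minus strand) had 17.2% and Hist1h2ae (chr13:23570517-23571220, minus strand) had 9.61%, which together makes 50.6%. The H4 gene Hist1h4d (chr13:23581598-23582735, plus strand) followed with 7.61% and Hist1h1e (H1.4, chr13:23620629-23622558, minus strand) with 5.39%. At the other end Hist2h2aa2 was listed at 0 UMIs in all 6 libraries. All (100.0%) of the 75-base words in its last 400 bases also occur in other genes, Hist2h2aa1 among them. Its reads could thus be lost or counted under a copy, so the 0 does not show that the gene is silent. Of the 67 members, 31 had 1000 or more UMIs. A 3' UMI is counted once per molecule whatever the transcript's length, but priming can differ between genes, so these shares describe captured RNA and not relative gene activity.

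Over all deposited barcodes the 67 genes took 2939 and 1815 CPM (UMIs of a gene per 1000000 UMIs) in the flushed embryos of E3.5 and E4.5, and 729, 524.8, 733 and 407 CPM in the dissected ones, from E4.75 to E5.5 in stage order. The counting intervals were narrow, from 2860 to 3020 CPM at E3.5 and from 403 to 411 CPM at E5.5. The libraries held 1788882 UMIs at E3.5, 12180550 at E4.5 and between 80593552 and 112702098 at the later stages. The E3.5 library was the smallest, with 88 cells, and the E5.5 library the shallowest, with a median of 5104 UMIs per cell against 10485 to 31090 at the other stages. Libraries shared 132 cell barcodes in all pairs together, of which 47 were kept as cells in both.

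Cells were assigned to lineages by clusters that were built without any histone, variant, chaperone or cell cycle list gene, so that these genes did not define the lineages. Of 20817 cells, the epiblast-like, endoderm-like (primitive or visceral) and trophoblast-like classes held 2444, 1141 and 2193 at E5.5 and 299, 420 and 240 at E4.5. Each cluster of these classes had 3 or more of its own markers at 2-fold or more over the mean of clusters. At E3.5 the epiblast-like and trophoblast-like classes had 44 and 42 cells and the endoderm-like class 2, too few for a value. At E5.5, 1695 of 8102 cells carried markers of 2 lineages and were set apart, and they held 337 histone CPM (326 to 349). The limit for setting them apart was chosen after the clusters were seen. The early and late cells of a class lay in different clusters: of the epiblast-like cells of E4.5, 298 were in a cluster that held none of that class at E5.5, of the endoderm-like cells 419 and of the trophoblast-like cells 233. The endoderm-like name also depended on the clustering: at a resolution of 0.5, 419 of the 420 endoderm-like cells of E4.5 took the parietal endoderm name, and 1139 of the 1141 of E5.5 fell among cells with markers of 2 lineages.

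In each of the 3 lineages the summed histone level was lower at E5.5 than at E4.5. In epiblast-like cells it was 626 CPM (614 to 638) at E5.5 and 2541 CPM (2488 to 2595) at E4.5, which is 4.06-fold lower. In endoderm-like cells it was 353 CPM (338 to 370) at E5.5 and 1458 CPM (1425 to 1491) at E4.5, 4.12-fold lower. In trophoblast-like cells it was 295 CPM (287 to 304) at E5.5 and 1654 CPM (1610 to 1699) at E4.5; the log2 ratio of CPM plus 10 was -2.45. The intervals of the stages do not overlap in any of the 3 lineages. Epiblast-like cells had the highest level of the 3 lineages at both stages.

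**Figure D1:**
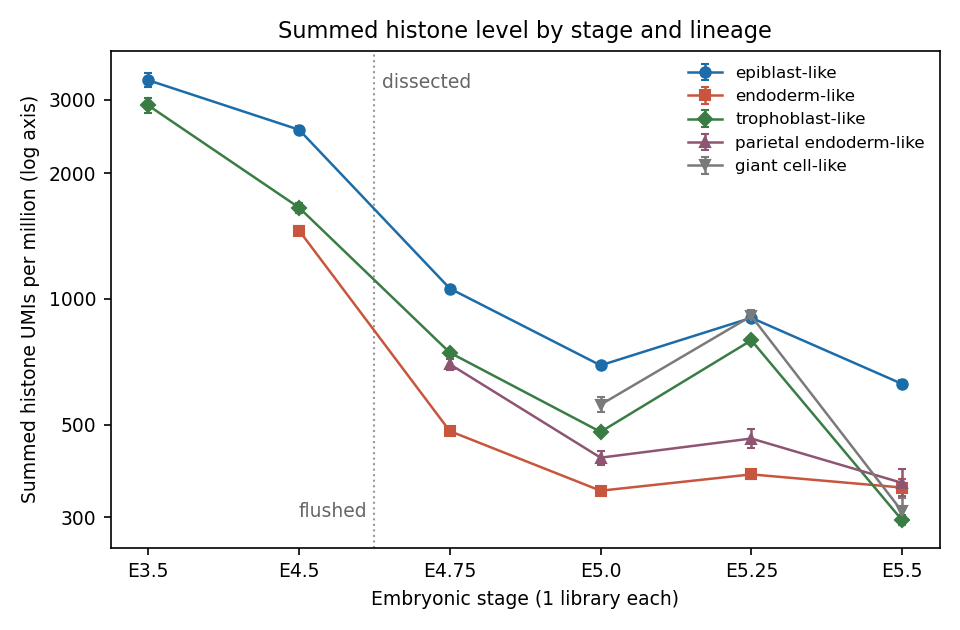
Summed UMIs of the 67 histone genes as CPM (log axis) against embryonic stage, with 1 point per lineage and library and exact Poisson 95% intervals; the dotted line marks the change from flushed to dissected embryos. All lineages with a value at both stages are lower at E4.75 than at E4.5, and all 5 lineages are higher at E5.25 than at E5.0.

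The full course shows where the difference lies. In epiblast-like cells the summed level was 3339 and 2541 CPM in flushed embryos (E3.5, then E4.5), and 1059, 693, 901 and 626 CPM in the dissected ones (from E4.75 to E5.5 in stage order). In endoderm-like cells it was 1458 CPM at E4.5, and 482, 347, 380 and 353 CPM in the dissected embryos (from E4.75 to E5.5 in stage order). In trophoblast-like cells it was 2905 and 1654 CPM at E3.5 and E4.5, and 744, 480, 796 and 295 CPM from E4.75 to E5.5. The step from E4.5 to E4.75 was the largest between neighbouring stages in epiblast-like and endoderm-like cells, where E4.75 was 2.40-fold and 3.02-fold lower. In trophoblast-like cells E4.75 was 2.22-fold lower than E4.5, and E5.5 was 2.70-fold lower than E5.25. The steps at E4.75 coincide with the change in the age and hormone treatment of the females, in collection and in filtering, and the stage and these changes cannot be told apart. The step at E5.5 coincides with the return of the filter and the shallowest library. Set against E4.75, the first dissected stage, the E5.5 level was lower by less, with log2 ratios of CPM plus 10 of -0.75, -0.44 and -1.30 in epiblast-like, endoderm-like and trophoblast-like cells, against -2.00, -2.01 and -2.45 when set against E4.5. With that baseline 20, 14 and 11 members had 10 CPM or more at either stage. Of these, 6 were at least 2-fold lower and 2 higher at E5.5 in epiblast-like cells, against 8.09% and 4.8% of all genes at that level. In endoderm-like cells 4 were lower and 6 higher, against 4.54% and 5.58% of all genes, and in trophoblast-like cells 9 were lower and 0 higher, against 5.11% and 4.41%.

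Among dissected embryos without the filter, the last and the first stage lay within 1.5-fold of each other, and the middle stage, E5.0, lay below both in each of the 3 lineages. The summed level was 901 CPM at E5.25 and 1059 CPM at E4.75 in epiblast-like cells, and 380 CPM at E5.25 and 482 CPM at E4.75 in endoderm-like cells. In trophoblast-like cells it was 796 CPM (785 to 807) at E5.25 and 744 CPM (732 to 756) at E4.75. Among flushed embryos the level was already lower at the later stage, with 2541 CPM at E4.5 and 3339 CPM at E3.5 in epiblast-like cells, and 1654 CPM at E4.5 and 2905 CPM at E3.5 in trophoblast-like cells. At E5.5 the epiblast-like clusters with the most cells had 620 CPM (1598 cells) and 616 CPM (728 cells). The smaller ones had 652 CPM (56 cells) and 791 CPM (62 cells), the last with an interval (724 to 863) above those of the largest clusters. The endoderm-like clusters had 353 CPM (727 cells) and 354 CPM (414 cells). Trophoblast-like clusters had 308.5 CPM (297.5 to 319.8, 1361 cells), 276 CPM (262 to 291, 692 cells) and 282 CPM (140 cells), and the intervals of the first and second do not overlap. Parietal endoderm-like cells had 698 CPM at E4.75 and 363 CPM at E5.5, and giant cell-like cells had 558, 910 and 310 CPM from E5.0 to E5.5 in stage order.

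Each of the 5 histone classes was lower at E5.5 than at E4.5 in each of the 3 lineages, by different amounts. H2A, the partner of H2B in the nucleosome, differed the most: it was 231 CPM at E5.5 and 1185 CPM at E4.5 in epiblast-like cells (5.12-fold lower), 117 CPM at E5.5 and 744 CPM at E4.5 in endoderm-like cells (6.33-fold lower), and 130 CPM at E5.5 and 896 CPM at E4.5 in trophoblast-like cells (6.92-fold lower). H2B differed the least in epiblast-like and endoderm-like cells, with 90.6 CPM at E5.5 and 216 CPM at E4.5 in the first (2.38-fold lower) and 61.9 CPM at E5.5 and 133 CPM at E4.5 in the second (2.14-fold lower). In trophoblast-like cells the least difference was that of H4, with 49.0 CPM at E5.5 and 166 CPM at E4.5 (3.39-fold lower). H1 was 4.23-fold, 3.72-fold and 4.84-fold lower in epiblast-like, endoderm-like and trophoblast-like cells, and H3 was 3.98-fold, 4.12-fold and 6.12-fold lower.

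The classes did not follow the same course, so their shares shifted from stage to stage. Over the 6 stages in order, H2A took 69.5%, 46.6%, 25.3%, 38.6%, 40.6% and 36.9% of histone UMIs in epiblast-like cells. H1 took 12.1%, 24.0%, 41.1%, 27.9%, 29.0% and 23.0%, so that E4.75 had the highest H1 share and the lowest H2A share. The same held in endoderm-like cells, where H1 had 42.5% and H2A 26.7% at E4.75, and in trophoblast-like cells, where H1 had 43.6% and H2A 30.7% at E4.75. At E4.75, H1 was 435 CPM against 609 CPM at E4.5 in epiblast-like cells, 205 CPM against 297 CPM in endoderm-like cells and 324 CPM against 363.5 CPM in trophoblast-like cells, whereas H2A was 4.42-fold, 5.78-fold and 3.93-fold lower than at E4.5. H2B took 14.5% of histone UMIs in epiblast-like cells and 17.5% in endoderm-like cells at E5.5, against 8.48% and 9.11% at E4.5. H2A was higher at E5.25 than at E4.75 in each lineage: it was 366 CPM at E5.25 and 268 CPM at E4.75 in epiblast-like cells, 169 CPM at E5.25 and 129 CPM at E4.75 in endoderm-like cells, and 430 CPM at E5.25 and 228 CPM at E4.75 in trophoblast-like cells.

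**Figure D2:**
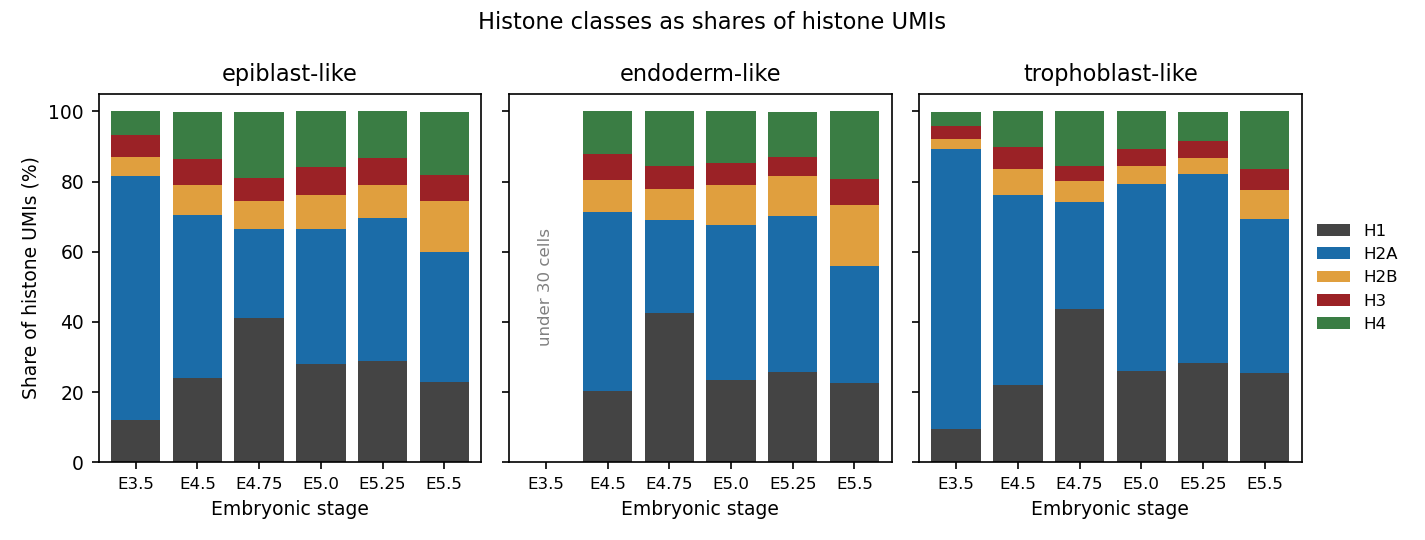
Share of histone UMIs (%) in each histone class against embryonic stage, 1 stacked bar per library and 1 panel per lineage; the endoderm-like class has under 30 cells at E3.5 and no bar. H1 has its largest share at E4.75 in all 3 panels (41.1%, 42.5% and 43.6%), and H2A its smallest there (25.3%, 26.7% and 30.7%).

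The H2A shares followed 1 gene in part. Hist1h2ap had 1802 and 636 CPM at E3.5 and E4.5 in epiblast-like cells, and 103, 152, 208 and 122 CPM from E4.75 to E5.5. In trophoblast-like cells it had 1940, 578, 113, 178, 277 and 78.6 CPM at the same 6 stages in order, and in endoderm-like cells 462 CPM at E4.5, and 60.3, 96.1, 105 and 60.6 CPM from E4.75 to E5.5. E3.5 was thus the highest stage in both lineages with a value there, and E4.75 the lowest before E5.5. Its share of histone UMIs was 54.0% in epiblast-like and 66.8% in trophoblast-like cells at E3.5, and 9.71% and 15.2% at E4.75. Without Hist1h2ap the remaining 66 genes summed to 503 CPM at E5.5 in epiblast-like cells. At E4.5 they summed to 1905 CPM, which lay above the 1536 CPM of E3.5. In trophoblast-like cells they summed to 217 CPM at E5.5, against 1077 CPM at E4.5, and the E4.5 value again lay above the 964 CPM of E3.5.

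Hist1h2ae, the other H2A gene with many UMIs, had a flatter course before E4.75. In epiblast-like cells it had 252 and 324 CPM at E3.5 and E4.5, and 85.6, 70.7, 96.2 and 61.3 CPM from E4.75 to E5.5. In epiblast-like cells there were thus 7.14 UMIs of Hist1h2ap for each of Hist1h2ae at E3.5, and 2.00 at E5.5. Both genes code for H2A and differ in their annotated 3' ends as shown above.

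Of the linker histone genes, Hist1h1b (H1.5) had the most UMIs. It had 288 and 372 CPM at E3.5 and E4.5 in epiblast-like cells, and 283, 109, 150 and 72.4 CPM from E4.75 to E5.5. In trophoblast-like cells it had 177, 228, 213.5, 77.3, 139 and 41.9 CPM at these stages, and in endoderm-like cells 163 CPM at E4.5, and 121, 36.9, 44.1 and 23.1 CPM from E4.75 to E5.5. The value at E4.75 lay below that at E4.5 in each lineage, by the least in trophoblast-like cells, and the values from E5.0 on lay below both. Against E4.5, Hist1h1b was 5.14-fold lower at E5.5 in epiblast-like, 7.08-fold lower in endoderm-like and 5.45-fold lower in trophoblast-like cells. Hist1h1a (H1.1) and Hist1h1e (H1.4) were lower at E5.5 than at E4.5 in all 3 lineages, by 3.46-fold and 2.94-fold in epiblast-like cells. Hist1h1e overlaps Hist1h2be on the same strand in the annotation, so reads in the overlap cannot be assigned to 1 of them with certainty.

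Hist1h4d followed a course like that of Hist1h1b, with 116 and 187 CPM at E3.5 and E4.5 in epiblast-like cells, and 134, 52.0, 60.5 and 55.3 CPM from E4.75 to E5.5. It codes for H4, whose protein is the same from nearly all H4 genes. The H3 genes Hist1h3c and Hist1h3e had 12.7 CPM and 7.96 CPM at E5.5 and 53.6 CPM and 57.7 CPM at E4.5 in epiblast-like cells. The H2B gene Hist1h2bj was 7.14 CPM at E5.5 and 42.6 CPM at E4.5 in epiblast-like cells, and 1.452 CPM at E5.5 and 29.5 CPM at E4.5 in endoderm-like cells, a 20.3-fold lower level that rests on 8 UMIs at E5.5. Hist1h3a, Hist1h4h and Hist2h2ac were likewise lower at E5.5 in all 3 lineages.

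**Figure D3:**
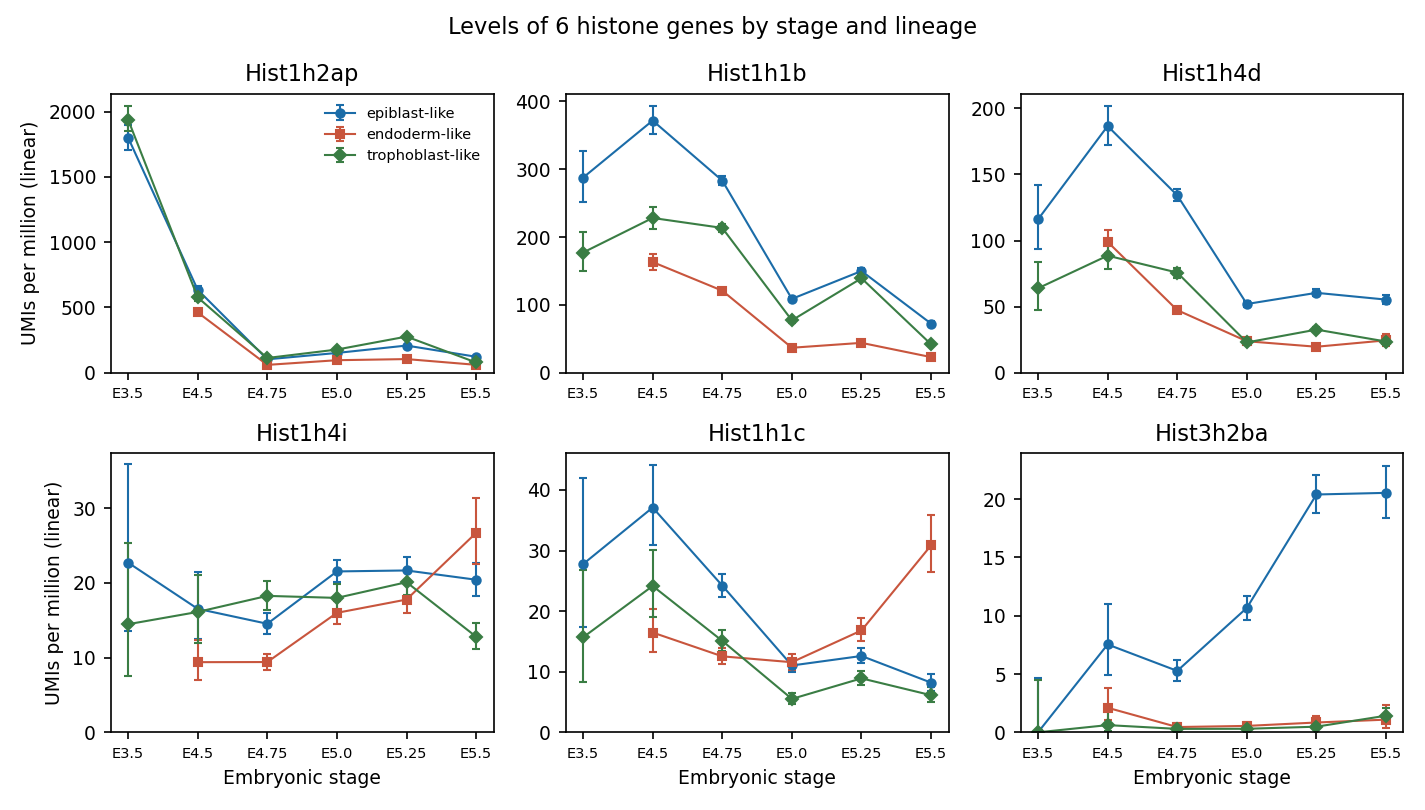
UMIs as CPM (linear axes that start at 0) of 6 histone genes against embryonic stage, 1 point per lineage and library with exact Poisson 95% intervals; the endoderm-like class has no value at E3.5. Hist1h2ap, Hist1h1b and Hist1h4d in the upper row are lower at E5.5 than at E4.5 in each lineage, while in the lower row Hist1h4i and Hist1h1c are higher at E5.5 in endoderm-like cells and Hist3h2ba is higher at E5.5 in epiblast-like cells.

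A few members did not share the lower level at E5.5. Hist3h2ba (chr11:58948920-58949533, plus strand), an H2B gene outside the large clusters, had 0 UMIs in epiblast-like cells at E3.5, then 7.53 CPM at E4.5, and 5.27, 10.7, 20.4 and 20.5 CPM from E4.75 to E5.5. Its E5.5 level rests on 348 UMIs and its E4.5 level on 26. In endoderm-like cells it had 1.09 CPM at E5.5 and 2.11 CPM at E4.5, and in trophoblast-like cells 1.43 CPM at E5.5 and 0.619 CPM at E4.5, so the epiblast-like cells held the higher level at each of these stages. Within the E5.5 library the epiblast-like interval was 18.4 to 22.8 CPM, the endoderm-like 0.4 to 2.37 CPM and the trophoblast-like 0.915 to 2.12 CPM.

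In endoderm-like cells several members were higher at E5.5. Of these, Hist1h4i, Hist1h3d, Hist1h2ac and Hist4h4 were higher at E5.5 in another lineage as well. The H4 gene Hist1h4i (chr13:22040636-22041362, minus strand) had 9.39 CPM at E4.5, and 9.40, 15.98, 17.8 and 26.7 CPM from E4.75 to E5.5 in stage order. Hist1h1c (H1.2, chr13:23738808-23740367, plus strand) had 16.5 CPM at E4.5, and 12.5, 11.6, 16.8 and 30.9 CPM from E4.75 to E5.5. Hist1h2bc (chr13:23684199-23692908, plus strand) had 16.9 CPM at E4.5, and 7.97, 15.4, 23.8 and 30.0 CPM from E4.75 to E5.5. Hist1h3d (chr13:23575763-23577011, plus strand) was 10.4 CPM at E5.5 and 2.68 CPM at E4.5, and Hist1h2ac (chr13:23681467-23683948, minus strand) was 15.97 CPM at E5.5 and 8.62 CPM at E4.5; Hist1h2ac overlaps another gene on its strand, so its reads are less certain. Hist4h4, the H4 gene on chromosome 6, had 5.63 CPM at E5.5 and 2.49 CPM at E4.5 in endoderm-like cells, and 9.497 CPM at E5.5 and 6.67 CPM at E4.5 in epiblast-like cells.

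Hist1h1c and Hist1h2bc had the opposite order in the other lineages. Hist1h1c was 8.20 CPM at E5.5 and 37.1 CPM at E4.5 in epiblast-like cells, and 6.13 CPM at E5.5 and 24.2 CPM at E4.5 in trophoblast-like cells. Hist1h2bc was 13.04 CPM at E5.5 and 20.3 CPM at E4.5 in epiblast-like cells, and 7.67 CPM at E5.5 and 24.2 CPM at E4.5 in trophoblast-like cells. The difference between lineages was not tested, since each lineage has 1 library per stage. The directions held in all 3 lineages with median-of-ratios scaling and with mitochondrial and ribosomal protein genes left out of the total, whereas against E4.75 Hist1h2bc was higher at E5.5 in trophoblast-like cells (log2 ratio 0.19 of CPM plus 10) and in epiblast-like cells (0.16).

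**Figure D4:**
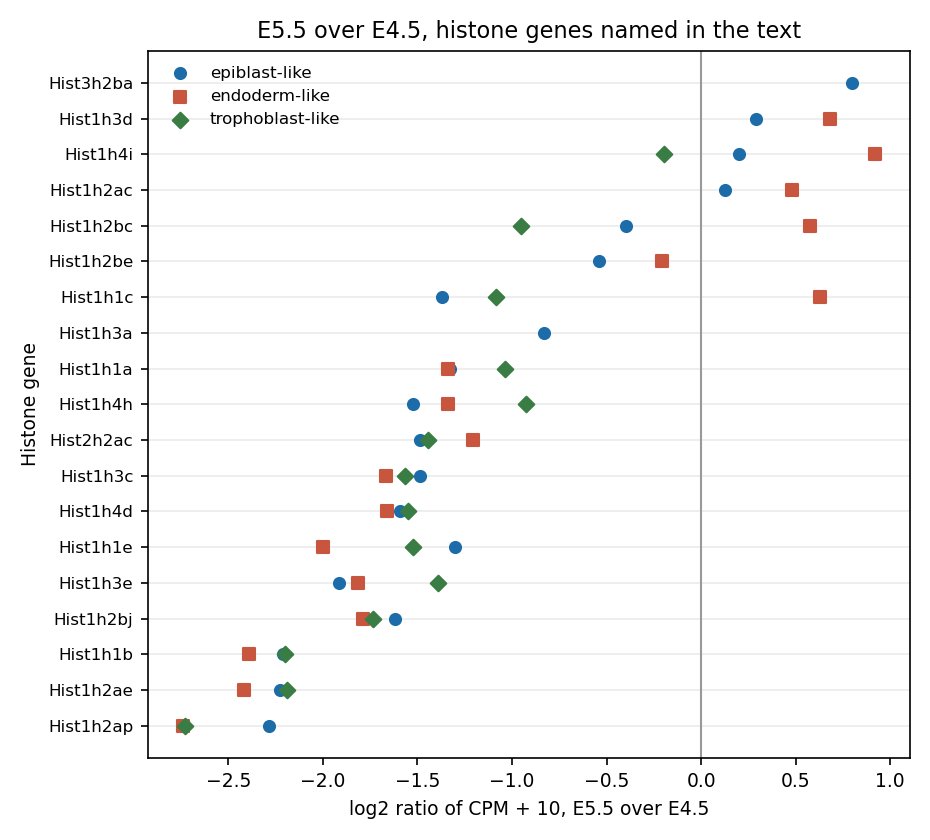
Log2 ratio of CPM plus 10, E5.5 over E4.5, of the named histone genes with 10 CPM or more at either stage, 1 marker per lineage; values left of 0 are lower at E5.5. Hist1h2ap, Hist1h2ae and Hist1h1b have the lowest ratios in all 3 lineages, and Hist1h1c lies right of 0 in endoderm-like cells (0.63) and left of 0 in epiblast-like (-1.37) and trophoblast-like cells (-1.08).

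Over the whole set, 55 of 67 members had a lower CPM at E5.5 than at E4.5 in epiblast-like cells and 10 a higher one, by any amount. In endoderm-like cells 53 were lower and 11 higher, and in trophoblast-like cells 59 were lower and 6 higher. The share of all genes that were lower by any amount was not counted, so these counts have no background. The median gene was itself lower in plain CPM, as given below. With 10 CPM or more required at either stage, 37, 25 and 21 members remained in epiblast-like, endoderm-like and trophoblast-like cells. Of these, 31 were at least 2-fold lower and 1 at least 2-fold higher at E5.5 in epiblast-like cells, while 18.0% and 13.1% of all genes at that level were. In endoderm-like cells 18 were lower and 2 higher, against 12.5% and 17.1% of all genes. In trophoblast-like cells 20 were lower and 0 higher, against 14.7% and 11.7% of all genes. Most of these members reached 10 CPM at E4.5 alone (23, 13 and 15 in the 3 lineages), and a gene that enters in this way tends to be lower at E5.5 by construction. Among the 11, 9 and 6 members at 10 CPM or more at both stages, 8, 5 and 5 were at least 2-fold lower and 0 at least 2-fold higher. Of all genes at 10 CPM or more at both stages, 9.23%, 6.37% and 7.39% were that much lower and 9.66%, 14.3% and 9.06% that much higher. With no filter on low values 52, 43 and 58 members were at least 2-fold lower and 2, 8 and 1 higher, against 36.7%, 23.9% and 37.1% of all genes lower and 12.0%, 19.6% and 9.96% higher. The median log2 ratio of CPM plus 10 was -1.22, -1.21 and -1.33 over the members at 10 CPM, against 0.01, 0.18 and 0.07 over all genes at 10 CPM. The median gene's plain CPM ratio differed from equality by -0.17 in epiblast-like, -0.03 in endoderm-like and -0.14 in trophoblast-like cells on the log2 scale, and relative to it the summed histone level was -1.83, -1.99 and -2.30.

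Between E5.25 and E4.75 fewer members passed the 2-fold line. In epiblast-like cells 18 members had 10 CPM or more at either stage, of which 2 were higher at E5.25 (Hist3h2ba and Hist1h2ap) and 2 lower (Hist2h2ac and Hist1h4d), against 2.31% and 7.52% of all genes. In endoderm-like cells 1 of 12 was higher (Hist1h2bc) and 5 were lower, Hist1h1b, Hist1h1d, Hist1h1a, Hist1h4d and Hist1h3c, against 3.99% and 2.83% of all genes. In trophoblast-like cells 1 of 11 was higher (Hist1h2ap) and 1 lower (Hist1h4d), against 3.41% and 6.14% of all genes. Between E4.5 and E3.5 in epiblast-like cells 8 of 41 were higher and 6 lower at E4.5, against 16.4% and 18.2% of all genes, and in trophoblast-like cells 3 of 24 were higher and 3 lower, against 14.7% and 14.9% of all genes. The histone shares past 2-fold between E4.5 and E3.5 were therefore near those of all genes. The genes given for these 2 comparisons were named after their values were seen.

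Between E5.5 and E4.5 the summed level of members with long annotated transcripts differed by less than that of the others. The others include Hist1h2ap, Hist1h1b and Hist1h2ae, which held 50.6% of all histone UMIs and had the lowest ratios in each lineage. Their sum thus depends much on these genes. The 18 members with an annotated transcript of 1000 bases or more summed to 194 CPM at E5.5 and 475.5 CPM at E4.5 in epiblast-like cells, and the other 49 to 431 CPM at E5.5 and 2066 CPM at E4.5. In endoderm-like cells the long ones summed to 177 CPM at E5.5 and 285 CPM at E4.5, and the others to 176 CPM at E5.5 and 1173 CPM at E4.5. In trophoblast-like cells the sums were 77.4 CPM at E5.5 and 274 CPM at E4.5 for the long ones, and 218 CPM at E5.5 and 1381 CPM at E4.5 for the others. The share of histone UMIs in long transcripts was thus 50.1% at E5.5 and 19.5% at E4.5 in endoderm-like cells, 31.1% at E5.5 and 18.7% at E4.5 in epiblast-like cells, and 26.2% at E5.5 and 16.5% at E4.5 in trophoblast-like cells. Over the members at 10 CPM, the median log2 ratio of CPM plus 10 of the long ones was 0.14 in endoderm-like cells, against -1.25 for the others, but -1.04 against -1.27 in epiblast-like and -1.16 against -1.36 in trophoblast-like cells. The medians of the long ones rest on only 8, 9 and 5 members in that order of lineages. Between E5.25 and E4.75 the order of the long ones and the others was the opposite in 2 lineages. There the sums of the long ones differed by log2 ratios of -0.59 in epiblast-like and -0.49 in trophoblast-like cells, against -0.11 and 0.25 for the others, while in endoderm-like cells it was -0.20 against -0.42. Members whose 3' ends share many words with other genes also differed from those that do not: in endoderm-like cells the 21 members with under 10% shared words summed to 222 CPM at E5.5 and 415 CPM at E4.5, and the other 46 to 131 CPM at E5.5 and 1042 CPM at E4.5. Between E5.25 and E4.75 this order was the other way round, with log2 ratios of sums of -0.52 for the 21 and -0.16 for the 46 in endoderm-like cells. These features overlap among members, and their parts in the result were not tested.

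Promoters of the members had the letters known from histone genes. In windows from 250 bases before to 50 bases after the start (RefSeq, GRCm38.p6), 62 members matched 63 distinct promoters. On either strand CCAAT was present in 85.71% of them, against 37.41% of 32851 promoters of all genes. It was present in all H1, H2A, H2B and H3 windows and in 3 of 12 H4 windows (25.0%). TATAAA was present in 55.56% of histone windows, against 13.62% of all. The octamer ATTTGCAT, known as a binding site of POU factors such as OCT1, was present in 7 of 17 H2B windows and 7 of 18 H2A windows and in 0 windows of the other classes, against 1.74% of all promoters. Some H2A and H2B genes start near each other on opposite strands, such as Hist1h2ae and Hist1h2bg, so their windows overlap. A site there can be counted under both classes, so these counts are not independent. These are matches of letters and not evidence of binding.

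The replication-independent variants were higher in sum at E5.5. The 12 variant genes summed to 8320 CPM at E5.5 and 3557 CPM at E4.5 in epiblast-like cells, 5412 CPM at E5.5 and 3098 CPM at E4.5 in endoderm-like cells, and 6759 CPM at E5.5 and 2999 CPM at E4.5 in trophoblast-like cells. In epiblast-like cells 2 of 11 variants at 10 CPM were at least 2-fold higher and 1 lower at E5.5, in endoderm-like cells 4 of 11 were higher and 0 lower, and in trophoblast-like cells 6 of 10 were higher and 0 lower. Of all genes, 13.1%, 17.1% and 11.7% were that much higher in these lineages and 18.0%, 12.5% and 14.7% lower, so that the epiblast-like count lies near that of all genes. H3f3a, which codes for H3.3, had 425 and 512 CPM at E3.5 and E4.5 in epiblast-like cells, and 1182, 1797, 1829 and 1790 CPM from E4.75 to E5.5. H2afz, which codes for H2A.Z, had 1366, 1098, 2864, 3567, 3005 and 3256 CPM at these stages. H2afy, which codes for macroH2A1, had 342 CPM at E3.5, 41.4 at E4.5 and 11.4 at E5.5 in epiblast-like cells. The ratio of summed histone to summed variant UMIs was 0.982, 0.714, 0.145, 0.0777, 0.108 and 0.0752 over the 6 stages in order in epiblast-like cells, and 0.0437 at E5.5 and 0.552 at E4.5 in trophoblast-like cells. The step at E4.75 that coincides with the change in collection is present in the variants too, in the other direction.

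**Figure D5:**
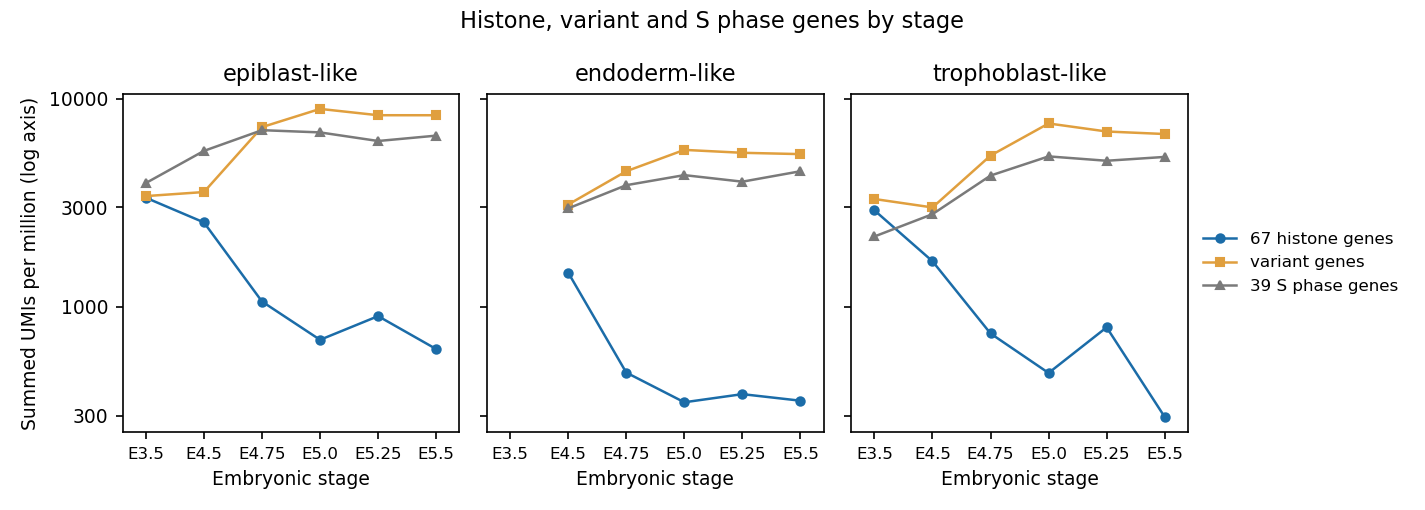
Summed UMIs as CPM (log axis) of the 67 histone genes, the 12 replication-independent variant genes and the 39 S phase genes against embryonic stage, 1 panel per lineage and 1 point per library. Histone genes are lower and variant genes higher at E5.5 than at E4.5 in each panel, and the S phase genes are higher at E5.5 (6639 against 5608 CPM in epiblast-like cells).

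Genes that act on histone mRNA and histone protein were not lower in sum at E5.5 than at E4.5 in any of the 3 lineages. Of 14 genes for histone mRNA transcription and 3' end processing found in the files, 12 had 10 CPM or more in epiblast-like cells, of which 1 (Lsm10) was at least 2-fold higher and 0 were lower at E5.5, with a median log2 ratio of 0.27. Slbp, which binds the stem-loop, had 235 CPM at E5.5 and 144 CPM at E4.5, and Npat, the coactivator of histone gene transcription, had 43.6 CPM at E5.5 and 44.9 CPM at E4.5. Srrt had 124 CPM at E5.5 and 191 CPM at E4.5. Of 23 chaperone and import genes at 10 CPM, 0 were higher and 1 lower at E5.5 in epiblast-like cells, namely Chaf1b, a subunit of the chromatin assembly factor CAF-1, with 33.0 CPM at E5.5 and 70.7 CPM at E4.5. Nasp, a chaperone of H3 and H4, had 1532 CPM at E5.5 and 1019 CPM at E4.5, and Npm1 had 5384 CPM at E5.5 and 3337 CPM at E4.5. In endoderm-like cells 1 of these 23 genes was higher and 2 were lower, and in trophoblast-like cells 1 was higher and 0 were lower. Of all genes at 10 CPM or more at either stage, 13.1% were at least 2-fold higher in epiblast-like, 17.1% in endoderm-like and 11.7% in trophoblast-like cells. In the same order of lineages, 18.0%, 12.5% and 14.7% were at least 2-fold lower.

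S phase genes were not lower as a group. They summed to 6639 CPM at E5.5 and 5608 CPM at E4.5 in epiblast-like cells, 4477 CPM at E5.5 and 2969 CPM at E4.5 in endoderm-like cells, and 5246 CPM at E5.5 and 2784 CPM at E4.5 in trophoblast-like cells. Of 39 such genes, 4, 8 and 14 were at least 2-fold higher at E5.5 in the 3 lineages and 0 were 2-fold lower in any. Of all genes at 10 CPM or more at either stage, 18.0%, 12.5% and 14.7% were at least 2-fold lower. The higher counts in epiblast-like and endoderm-like cells lie near those of all genes (13.1% and 17.1%), and the trophoblast-like count lies above the 11.7% of all genes. Dut had 1235 CPM at E5.5 and 329 CPM at E4.5 in epiblast-like cells, Mcm2 265 CPM at E5.5 and 124 CPM at E4.5, and Mcm6 135 CPM at E5.5 and 231 CPM at E4.5. Of 50 G2 and M phase genes, 6 were higher and 2 lower in epiblast-like cells, 3 of 49 were higher and 6 lower in endoderm-like cells, and 14 were higher and 0 lower in trophoblast-like cells. The shares of all genes beside these counts were 13.1%, 17.1% and 11.7% higher and 18.0%, 12.5% and 14.7% lower. Nusap1 had 63.7 CPM at E5.5 and 203 CPM at E4.5 in epiblast-like cells, while Cks1b had 716 CPM at E5.5 and 262 CPM at E4.5.

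To set histone levels beside cell cycle calls, each cell with 3000 or more UMIs was thinned to 3000. It was given a phase from the S phase and the G2 and M phase lists, neither of which holds a member. Cells with fewer UMIs were left out, so 905 of 1141 endoderm-like cells entered at E5.5. Of epiblast-like cells 2282 of 2444 entered there, and of trophoblast-like cells 2056 of 2193. At E4.5, S phase trophoblast-like cells had 2284 histone CPM (2057 to 2529; 54 cells), G2 or M cells 1686 CPM (135 cells) and G1 cells 1020 CPM (866 to 1193; 51 cells). Endoderm-like cells at E4.5 had 1756 CPM in S (1610 to 1912; 101 cells), 1592 CPM in G2 or M (1507 to 1681; 273 cells) and 891 CPM in G1 (741 to 1063; 46 cells). In both lineages the S phase cells had the highest and the G1 cells the lowest level. In endoderm-like cells, though, the intervals of S and of G2 or M cells overlapped. In epiblast-like cells 4 cells at E5.5 and 1 cell at E4.5 were called G1, and in trophoblast-like cells 5 cells at E5.5, too few for a value. At E5.5 epiblast-like S phase cells had 629 CPM and G2 or M cells 617 CPM, against 2869 CPM and 2428 CPM at E4.5. Between S phase cells alone the stages differed in the same direction as over all cells: 629 CPM at E5.5 and 2869 CPM at E4.5 in epiblast-like, 356 CPM at E5.5 and 1756 CPM at E4.5 in endoderm-like, and 338 CPM at E5.5 and 2284 CPM at E4.5 in trophoblast-like cells. The phase calls rest on RNA of the listed genes and free RNA can enter them, so no statement on cycling is drawn from them.

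At E5.5 the order within endoderm-like cells was another, with 356 CPM (322 to 393; 369 cells) in S, 324 CPM (295 to 355; 460 cells) in G2 or M and 526 CPM (436 to 629; 76 cells) in G1. Of the members described above as higher at E5.5 in this lineage, 4 were higher in G1 than in S cells. Hist1h4i had 18.1 CPM in S and 123 CPM in G1 cells, and Hist1h1c had 20.8 CPM in S and 110 CPM in G1 cells, from 28 and 25 UMIs in G1. Hist1h2bc had 44.3 CPM in S and 65.8 CPM in G1 cells, and Hist1h3d had 10.84 CPM in S and 17.5 CPM in G1 cells, from 15 and 4 UMIs in G1. These 2 orders rest on few UMIs. Of the other named members, Hist2h2ac, Hist3h2ba, Hist1h4h, Hist1h3e and Hist1h3a were also higher in G1, each from 1 UMI there. Lower in G1 were Hist1h1b, Hist1h1e, Hist1h1a, Hist1h2ae, Hist1h2be, Hist1h2bj, Hist1h3c and Hist1h4d. A higher level in G1 was thus not limited to the members that were higher at E5.5. The share over all 67 members was not counted. Hist1h2ac had 10.84 CPM in S and 4.39 CPM in G1 cells and Hist4h4 7.23 CPM in S and 0 UMIs in G1 cells, so these were not higher there. Hist1h2ap had 63.2 CPM in S and 17.5 CPM in G1 cells. The order depended on the method. With no thinning the levels were 399 CPM (373 to 426) in S and 415 CPM (360 to 477) in G1 cells, whose intervals overlap, and when cells were ranked by their S phase list level the highest-ranked had 338 CPM and the lowest-ranked 314.5 CPM (301 cells each). Markers of uterine epithelium, the cell type in which Hist1h2bc and Hist1h1c were also high, summed to 27.95 CPM at E5.5 and 32.6 CPM at E4.5 in endoderm-like cells; their part in the G1 level was not tested.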

How the data were processed

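Stages were taken from the labels, with 1 library each. The values are deposited UMI counts, whole numbers without normalization, and per the file headers Cell Ranger 7.1.0 made them. Builds named in the submitters' processing notes are mm10, GRCm38 and hg38, and for the annotation release and alignment settings the sources used here give nothing. Barcodes with at least 1500 genes and at most 15% mitochondrial counts were kept, 0.8% per 1000 cells (at most 8%) with the highest Scrublet scores were removed in each library, and 20817 of 42328 remained. Leiden clustering (scanpy 1.11.5, 2000 variable genes, 30 components, 15 neighbours, resolution 1.0) left out all histone and listed genes, and clusters were named from marker genes. Cells of a cluster and library in which an unrelated lineage's markers reached a share of 0.15 were set apart. Counts were summed per lineage and library (at least 30 cells) as CPM. Log2 ratios use CPM plus 10. Those of sums by annotated length or shared words and that of the median gene use plain CPM instead. Folds use plain CPM with 0 counts taken as 3. Calls mean 2-fold. The calls and thinning were tested on simulated data. Named members were the 4 with the most UMIs per histone class and the 3 highest and 3 lowest ratios per lineage, and 3 highest and 3 lowest of each other list, of which some are printed. The members and lists were chosen with earlier results of these data known. Stem-loops were searched in GENCODE M21 transcripts (GRCm38), to which all 67 members matched by gene identifier. No column of other samples was present. The alternatives are given in the closing section.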

Additional observations from a re-analysis of the deposited data

Results flagged for a closer look

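Hist1h1c and Hist1h2bc were singled out because the direction of the E5.5 over E4.5 ratio differed between lineages, each beyond its own counting interval. The log2 ratio of CPM plus 10 of Hist1h1c was 0.63 in endoderm-like cells, -1.37 in epiblast-like cells and -1.08 in trophoblast-like cells. That of Hist1h2bc was 0.57 in endoderm-like cells, -0.40 in epiblast-like cells and -0.95 in trophoblast-like cells. The difference between lineages was not tested, as each has 1 library per stage.

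Uterine epithelium-like cells, which enter no comparison above, had 2091 histone CPM (1922 to 2270) in 35 cells at E4.75, against 1059 CPM in the epiblast-like cells of the same library. A count of 3 would be 11.1 CPM there. Hist1h2bc made up 994 CPM and Hist1h1c 779 CPM of it. The same genes led in the smaller groups of such cells, with 597 and 269 CPM in 16 cells at E5.0 and with 1050 and 363 CPM in 18 cells at E5.25. The median UMI count of these cells was 7300 at E4.75 and their median mitochondrial share 0.649%, against a library median of 4.85%.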

How the results depend on the processing

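The lower summed histone level at E5.5 kept its direction in all 47 alternatives over the 3 lineages. Set against E4.75 it shrank to log2 ratios of -0.75, -0.44 and -1.30 in epiblast-like, endoderm-like and trophoblast-like cells, with 6, 4 and 9 members 2-fold lower, 2 and 6 higher in the first and second of these, and Hist1h2ap at 0.23 and 0.007 in those same lineages and the H2B class at 0.083 and 0.486 there now above 0; the cause was not tested. Its other values that moved past the counting interval, in the same order of lineages, were -1.95 and -1.87 (2500 genes; epiblast-like, endoderm-like), -1.88 and -2.51 (5% mitochondrial; endoderm-like, trophoblast-like), -2.53 (no doublet removal) and -2.52 (histone genes kept in the clustering; both trophoblast-like), -1.83 and -2.30 (median-of-ratios; epiblast-like, trophoblast-like), and, for epiblast-like and endoderm-like cells, -2.08 and -2.22 (no mitochondrial or ribosomal protein genes in the total), -2.11 and -2.19 (mean of each cell's own CPM), -2.10 and -2.10 (cells thinned to 3000 UMIs) and -2.09 and -2.09 (4000 to 16000 UMIs, chosen after seeing the data). S phase cells alone gave -2.17, -2.27 and -2.72, and leaving out Hist1h2ap gave -1.90, -1.73 and -2.26. With no filter on low values 52, 43 and 58 members were 2-fold lower and 2, 8 and 1 higher, against 36.7%, 23.9% and 37.1% of all genes lower and 12.0%, 19.6% and 9.96% higher. In endoderm-like cells 1 member was higher with 1000 genes or with cells of 2 lineages kept in (chosen after seeing the data). S over G1 was 0.97 in endoderm-like and 1.16 in trophoblast-like cells at E4.5 and -0.55 in endoderm-like cells at E5.5; the cells ranked highest against lowest by S phase list gave 0.38 and 0.10 in endoderm-like cells at E4.5 and E5.5, and no thinning gave 1.81 in trophoblast-like cells at E4.5 and -0.057 in endoderm-like cells at E5.5. In kept cells alone the histone levels of E3.5, E4.75 and E5.5 were 3066, 739 and 418 CPM in that order. At resolution 0.5 the endoderm-like cells took other names, as given above, so no endoderm-like value was had, and 1223 of the 2193 trophoblast-like cells of E5.5 kept their name. Epiblast-like cells had too few G1 cells for S over G1. The stricter filters kept the lineage names of the clustering above. No paired analysis was possible because each stage is 1 library.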

Other observations

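Hist1h4i, Hist1h3d and Hist1h2ac, each with a higher CPM at E5.5 than at E4.5 in at least 2 lineages, were chosen after their values were seen. They are not the only such members: Hist4h4 and Hist3h2ba, described above, were also higher in at least 2 lineages. For Hist3h2ba the second lineage is the trophoblast-like one, where its E4.5 level rests on very few UMIs. In endoderm-like cells Hist3h2ba was lower at E5.5. Hist4h4 was at a low level in endoderm-like cells at both stages. All 3 have an annotated transcript that runs past the stem-loop, by 330, 752 and 2010 bases, but 22 of the 67 members run 100 or more bases past it. This share was not counted over all members that were higher in at least 2 lineages. In the whole libraries Hist1h4i had 16.8, 13.5, 13.6, 19.3, 22.7 and 17.0 CPM over the stages in order, Hist1h3d had 1.68, 4.27, 5.18, 7.64, 6.24 and 7.37 CPM, and Hist1h2ac had 3.91, 7.72, 3.98, 6.29, 6.77 and 9.12 CPM.

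An unnamed cluster of 40 cells at E4.75 with a median mitochondrial share of 0.355% had 809 histone CPM (703 to 926), led by Hist1h1b with 267 CPM.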
